A study of Mus musculus with 8 samples.

Results

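The genes described are 10 of the 54532 genes in the deposited count table: the αVβ6 integrin subunits Itgb6 and Itgav, the ligands Tgfb1, Tgfb2 and Tgfb3, the receptors Tgfbr1 and Tgfbr2, the latent binding proteins Ltbp1 and Ltbp3, and the TGF-beta-induced matrix protein Tgfbi. They were taken by gene name, from a list drawn up with earlier results of these data known, and all 10 passed the filter on low counts. RNA was sequenced from first molars of C57BL/6 mouse pups after removal of the pulp. The KO group was 4 libraries (KO 1, 3, 4 and 5) from mice homozygous for an ablated Wdr72 gene (wdr72-/-), from a colony bought from a mouse repository. The WT group was 4 libraries (WT 2, 3, 4 and 5) from wild-type mice. The age is given as postnatal day 12 in one label and 13 in another. No other allele or agent is named in either group, and the sex of the pups is not given. The deleted part of Wdr72 is not labelled, nor is it stated whether a library came from 1 pup or a pool. The p-values thus measure the spread between libraries, which may be technical. Although the labels name ameloblasts, the enamel-forming epithelial cells, the molar without its pulp was homogenised whole, and the libraries also held reads of dentin, bone and connective tissue genes. In such a mixture, fewer cells of a type and less RNA per cell cannot be told apart.

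TGF-beta is made with a propeptide that stays wrapped around it and keeps it inactive. Latent TGF-beta binding proteins tie this complex to the extracellular matrix. The epithelial integrin αVβ6 binds an Arg-Gly-Asp site in the propeptide and pulls the ligand free, and the active ligand then brings together the type II and type I receptor kinases, which act through Smad proteins. Loss of ITGB6 or of LTBP3 in humans is known to cause defects of enamel formation, and mice without Itgb6 also form defective enamel.

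The coding sequences of the 3 ligands show where the integrin acts and are given for that reason, with the codons of the Arg-Gly-Asp site, or those aligned to it in Tgfb2, in capitals (GENCODE M21, build GRCm38, coding strand, 45 bases each).
Tgfb1: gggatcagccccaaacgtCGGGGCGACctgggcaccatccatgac
Tgfb3: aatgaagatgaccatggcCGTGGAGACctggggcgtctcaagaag
Tgfb2: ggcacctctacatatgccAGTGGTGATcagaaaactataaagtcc
The Tgfb1 stretch lies on the + strand of chromosome 7 between 25696995 and 25697168, split over the coding exons 4 and 5 of a 7-exon transcript. That of Tgfb3 lies on the - strand of chromosome 12 from 86062147 to 86062191, in exon 5 of 7, and that of Tgfb2 on the - strand of chromosome 1 from 186630735 to 186630779, in exon 6 of 8. Translating the longest coding sequence of each gene found 1 Arg-Gly-Asp site in Tgfb1, 1 in Tgfb3 and 0 in Tgfb2. Itgb6 itself held 2, and Itgav, Tgfbr1, Tgfbr2, Ltbp1 and Ltbp3 held 0. Binding of an integrin to any of the sites was not tested. The matrix protein encoded by Tgfbi also holds 1 such site, near its end, at codon 642 of 683, split over exons 14 and 15 of 17 (chromosome 13, + strand, between 56636668 and 56637181).
Tgfbi: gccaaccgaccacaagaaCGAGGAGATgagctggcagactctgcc

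The libraries held 17084475 to 21887462 counted reads. Levels are given in CPM, counts per 1e6 of the TMM-scaled total of a library. Wdr72, the targeted gene, was at 102, 37.8, 24.9 and 15.8 CPM in KO 1, 3, 4 and 5, and at 173, 245, 327 and 227 CPM in WT 2, 3, 4 and 5. All KO values were below all WT values, with the highest KO value in KO 1, but the adjusted p in edgeR was 0.080 (log2 fold change -2.43, SE 0.47). It was 0.0056 in DESeq2, 0.024 in limma voom and, at a log2 fold change of -3.21, 0.012 in edgeR without KO 1, and 0.074 to 0.31 without any other single library. Xist, transcribed from the inactive X chromosome of females, was at 249, 191, 356 and 177 CPM in KO 1, 3, 4 and 5, and at 803, 839, 251 and 658 CPM in WT 2, 3, 4 and 5 (log2 fold change -1.39, SE 0.34, adjusted p = 0.12 in edgeR). WT 4 lay within the KO range, and the part of sex in the levels below was not tested. The labelled cell type was present: the summed level of 10 ameloblast markers was 60641 to 82092 CPM in KO and 54238 to 98752 CPM in WT. The sum of 12 mesenchyme markers was 2752 to 3313 CPM in KO and 1851 to 2871 CPM in WT, and that of 12 oral keratinocyte markers was 740 to 909 CPM in KO and 866 to 1507 CPM in WT. None of the genes in any marker list was at 0 reads over the 8 libraries. KO 5 correlated least with the others (mean r 0.965 over genes, against 0.980 to 0.983). The libraries also differed in GC bias: over genes, deviation from the mean of all libraries had a Spearman rho with GC content of -0.051 to 0.37 in KO and -0.42 to -0.16 in WT.

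Between KO and WT, 0 of the 10 genes passed an adjusted p of 0.05 in the quasi-likelihood test of edgeR, where 5 of 16205 genes (0.0309%) did. At an unadjusted p of 0.05 there was 1 of the 10, Itgb6, which was lower in KO, against 15.7% of all genes tested. DESeq2 called 0 of the 10 (2.86% of all genes) and limma voom called 1, Tgfbi (6.57%). None of the 10 had KO and WT values that did not overlap, against 10.9% of all genes (5.5% with KO higher and 5.44% with KO lower). Of the 10, 7 had a positive log2 fold change, against 53.1% of all genes, with a median of 0.13 against 0.021.

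**Figure D1:**
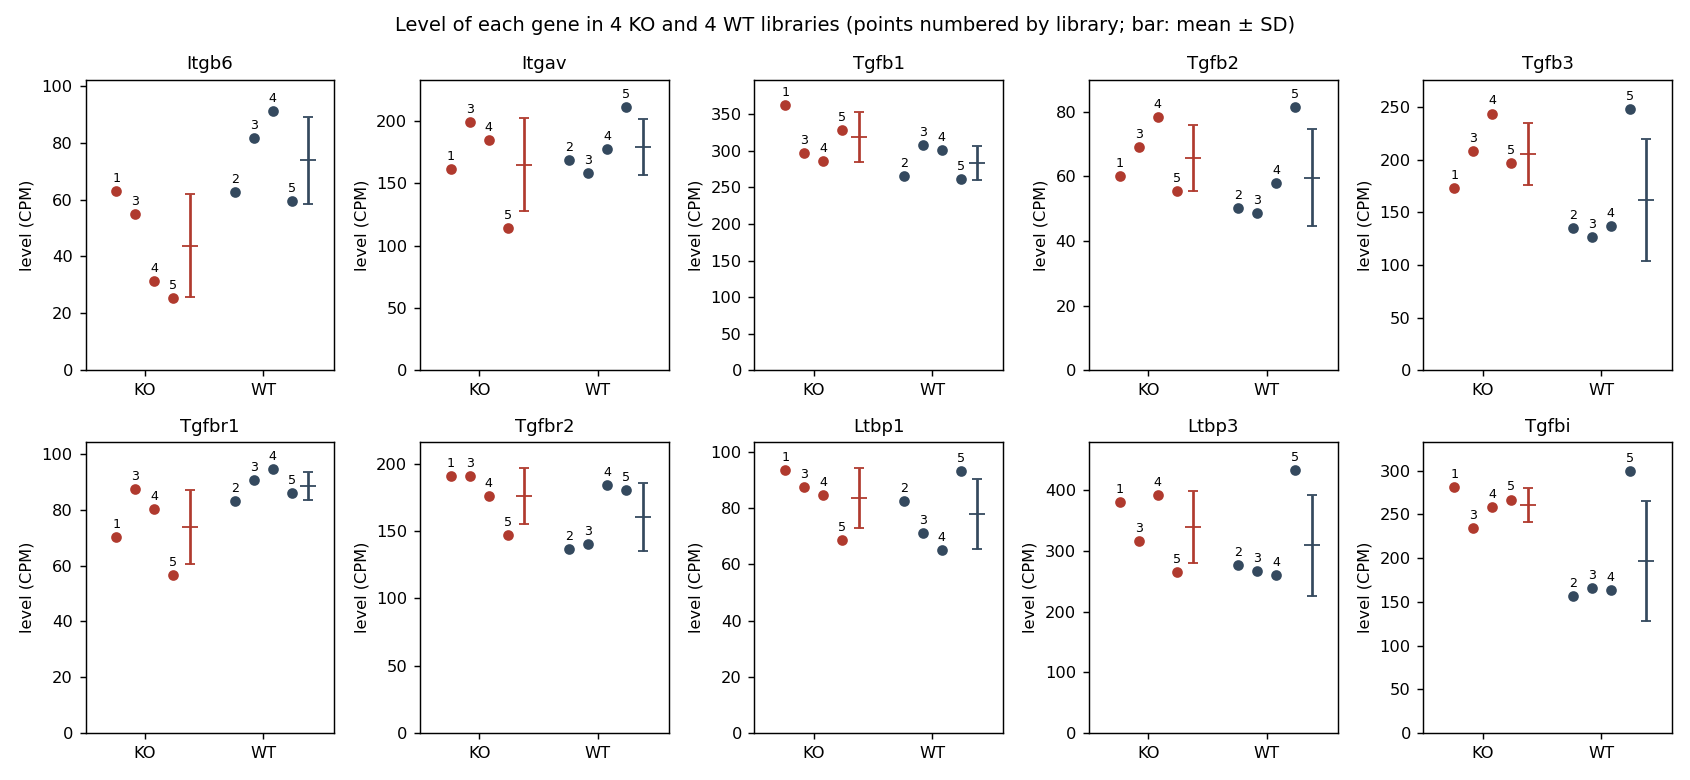
Level of each of the 10 genes in CPM (y axis, from 0) in the 4 KO and 4 WT libraries (x axis); points carry the library number, and the bar beside them is the mean ± SD. Itgb6 is lowest in KO 4 and KO 5, and Tgfb3, Ltbp3 and Tgfbi are far higher in WT 5 than in the other WT libraries.

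Itgb6 (ENSMUSG00000026971; chromosome 2, 60598292 to 60722643, - strand), which encodes the β6 chain found almost only in epithelia, was the member with the largest difference. It was at 63.1, 54.9, 31.4 and 25.5 CPM in KO 1, 3, 4 and 5, and at 62.6, 81.8, 91.3 and 59.5 CPM in WT 2, 3, 4 and 5. KO 3, 4 and 5 lay below every WT library, while KO 1 lay just above WT 2 and WT 5. The mean was 43.7 ± 18.1 CPM in KO and 73.8 ± 15.3 CPM in WT (SD, n = 4 each), so that the KO mean was 59.3% of the WT mean. The log2 fold change was -0.76 (SE 0.26), with an unadjusted p of 0.013 in edgeR's model over all genes and an adjusted p of 0.22 in edgeR. It was -0.98 without KO 1 and -0.57 without KO 5, with adjusted p values of 0.21 and 0.38 in edgeR. With a correction of each library for GC content it was -0.66 (adjusted p = 0.35 in edgeR). The spread within KO was wide: the coefficient of variation was 41.4% in KO, the highest of the 10 genes there, and 20.7% in WT.

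The libraries fell in nearly the same order by Itgb6 as by Wdr72, an order that was looked at after the values were seen and was not tested. Within KO both genes fell in the order KO 1, 3, 4 and 5 in CPM, so that KO 1 had the highest level of both. Within WT both were highest in WT 4 and next in WT 3. WT 2 and WT 5 stood in opposite order for the 2 genes. The sum of 10 ameloblast markers was 78247, 78807, 60641 and 82092 CPM in KO 1, 3, 4 and 5. In WT 2, 3, 4 and 5 it was 71147, 80859, 98752 and 54238 CPM, the order of Itgb6 in that group. Within KO the ameloblast sum was highest in KO 5, where Itgb6 was lowest. Markers of epithelium went both ways. The sum of 10 pan-epithelial markers, most of it from the keratins Krt5 and Krt14, was 17117, 16349, 16345 and 25247 CPM in KO 1, 3, 4 and 5, and 19097, 21441, 17640 and 18171 CPM in WT 2, 3, 4 and 5. Krt5, Krt14, Epcam, Jup and Perp were highest in KO 5 among the KO libraries, while Dsp and Trp63 were lowest there, at 567 and 307 CPM. Esrp1, a splicing regulator of epithelial cells, was at 74.2, 71.4, 66.4 and 59.4 CPM in KO 1, 3, 4 and 5, the order of Itgb6, and at 78.6, 75.7, 73.4 and 82.7 CPM in WT 2, 3, 4 and 5, a different order. The sum of oral keratinocyte markers, cells that also make αVβ6 when activated, was 805, 740, 756 and 909 CPM in KO 1, 3, 4 and 5, and 1507, 1471, 866 and 1305 CPM in WT 2, 3, 4 and 5. All 12 genes of that list had negative log2 fold changes. Of the 12, 2 passed an adjusted p of 0.05 in edgeR as lower in KO, Krt1 and Spink5 (0.0309% of all genes passed), and 9 were lower unadjusted (6.98% of all genes). DESeq2 called 8 and limma voom 9, all lower, against 2.86% and 6.57% of all genes in either direction. Without KO 3, KO 4, WT 2 or WT 3 edgeR called 0 of the list, and 0 over all genes. It called 1 without KO 1, where 5 passed over all genes. Without KO 5 or WT 4 it called 4, where 55 and 16 passed over all genes. In WT 4, which had the most Itgb6, most genes of the list were at their lowest in WT: Krt6a, Krt6b, Krt10, Krt16, Krtdap, Sbsn and Spink5. Krt1, Krt4 and Krt13 were at their highest there, and Dsg3 and Lor lay in between. The part of ameloblasts or of other epithelial cells in the Itgb6 level was not tested.

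The 3 protein-coding genes whose log2 CPM was most like that of Itgb6 over the 8 libraries, among 11179 with a mean of at least 5 CPM, were Jag1, Usp15 and Gpr155. Pearson's r was 0.977 for Jag1, a Notch ligand, 0.957 for Usp15, a deubiquitinating enzyme, and 0.955 for Gpr155, a membrane receptor-like protein. These are the top values of a search over many genes in 8 libraries that share the group difference, and are given as a description. Gpr155 was at 528, 389, 262 and 167 CPM in KO 1, 3, 4 and 5, and at 365, 513, 730 and 412 CPM in WT 2, 3, 4 and 5, with a log2 fold change of -0.59 (SE 0.32, adjusted p = 0.38 in edgeR). Gpr155 fell in the order KO 1, 3, 4 and 5 too, as did Usp15, at 77.7, 76.7, 70.6 and 61.9 CPM. Jag1, the gene most like Itgb6, did not fall in that order. It was at 105, 109, 91.0 and 79.9 CPM in KO 1, 3, 4 and 5. Wdr72 was in place 36 of the 11179 genes.

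Itgav (ENSMUSG00000027087; chromosome 2, 83724397 to 83806916, + strand), the αV chain that pairs with β6 and with other β chains, was at 161, 199, 185 and 114 CPM in KO 1, 3, 4 and 5. In WT 2, 3, 4 and 5 it was at 169, 158, 178 and 211 CPM. The groups overlapped widely, with the lowest value in KO 5 and the highest in WT 5. The log2 fold change was -0.12 (SE 0.17, adjusted p = 0.74 in edgeR) and turned positive, to 0.021, without KO 5. Per kb of exon, Itgb6 was at 59.2%, 41.7%, 25.7% and 33.7% of the Itgav level in KO 1, 3, 4 and 5, and at 56.0%, 78.0%, 77.6% and 42.6% in WT 2, 3, 4 and 5. The groups overlapped, since WT 5 lay with the KO libraries and KO 1 with WT 2. The mean log2 ratio of Itgb6 to Itgav was -1.39 ± 0.51 in KO and -0.70 ± 0.42 in WT (SD, n = 4 each), a difference of -0.69 with an exact two-sided permutation p of 0.11 over 70 arrangements (adjusted p = 0.34 over 6 ratios).

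The other β chains that pair with αV did not pass either. The activator list held these 4 chains and 6 further genes, 10 in all. By edgeR 0 of the 10 passed an adjusted p of 0.05, while the unadjusted p was under 0.05 for 5 higher and 0 lower, against 8.7% and 6.98% of all genes. The 5 were Itgb5, Thbs1, Mmp2, Mmp9 and Mmp14. With the GC correction 3 were higher and 0 lower by that p, where 1950 of 16205 genes reached it in either direction. The median log2 fold change of the list was 0.26, and 0.099 with the GC correction. DESeq2 and limma voom each called 2 higher, against 2.86% and 6.57% of all genes in either direction. Without KO 5 edgeR called 1 of the list, and 55 over all genes. Itgb5, the β chain of a vitronectin receptor, was at a log2 fold change of 0.30 (SE 0.13), and Itgb3, that of platelets and osteoclasts, at -0.35 (SE 0.23). Itgb8, the other αV partner known to activate latent TGF-beta, was at -0.11 (SE 0.18). Itgb1, at 825 ± 42.8 CPM in KO and 934 ± 67.5 CPM in WT, had a log2 fold change of -0.18 (SE 0.12). Thbs1, thrombospondin 1, which can activate latent TGF-beta without an integrin, was at 271, 333, 315 and 256 CPM in KO 1, 3, 4 and 5, and at 222, 200, 191 and 212 CPM in WT 2, 3, 4 and 5. All KO values of Thbs1 were above all WT values, at a log2 fold change of 0.51 (SE 0.12, adjusted p = 0.11 in edgeR). Mmp2, a gelatinase of mesenchymal cells, was at 330, 254, 300 and 398 CPM in KO 1, 3, 4 and 5, and at 178, 148, 145 and 273 CPM in WT 2, 3, 4 and 5. Only WT 5 lay within the KO range of Mmp2, whose log2 fold change was 0.78 (SE 0.21, adjusted p = 0.15 in edgeR).

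**Figure D2:**
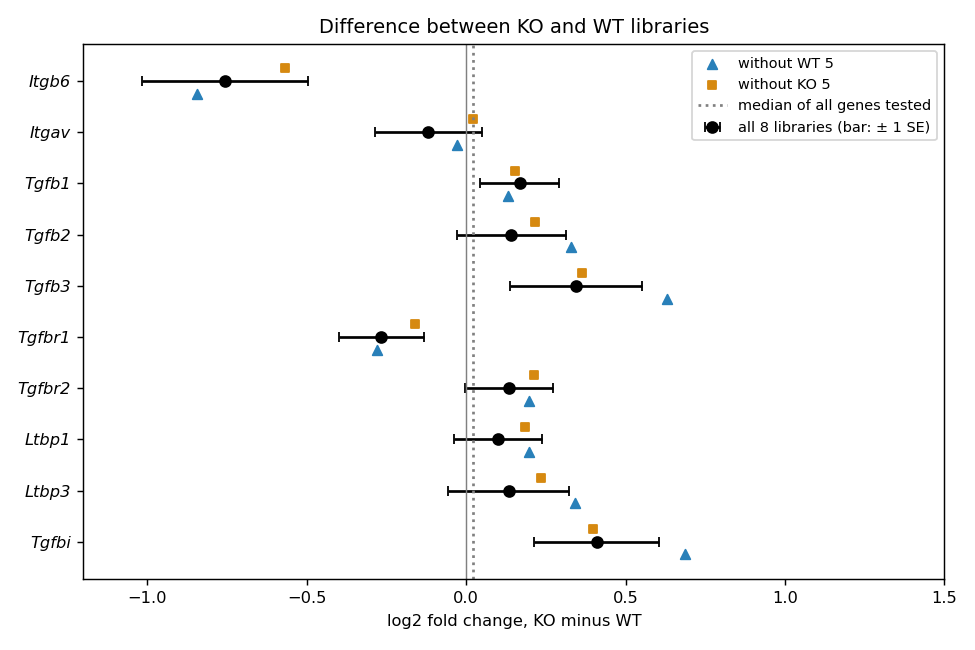
Log2 fold change of each gene, KO minus WT (x axis), with all 8 libraries (circle, bar ± 1 SE), without WT 5 (triangle) and without KO 5 (square); the dotted line is the median of all genes tested, 0.021. Itgb6 lies farthest below 0, at -0.76, and Tgfb3 and Tgfbi lie at 0.63 and 0.69 without WT 5.

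Of the ligands, Tgfb1 and Tgfb3 made up nearly the whole of the summed level per kb of exon. Tgfb1 (ENSMUSG00000002603; chromosome 7, 25687002 to 25705077, + strand), the form made by most cell types including leukocytes, was at 363, 298, 286 and 329 CPM in KO 1, 3, 4 and 5, and at 265, 307, 301 and 262 CPM in WT 2, 3, 4 and 5. KO 3 and KO 4 lay within the WT range. Its log2 fold change was 0.17 (SE 0.12, adjusted p = 0.50 in edgeR). The summed level of 10 macrophage and leukocyte markers was 209, 190, 203 and 255 CPM in KO 1, 3, 4 and 5, and 159, 155, 171 and 180 CPM in WT 2, 3, 4 and 5, with 0 of the 10 past an adjusted p of 0.05 in edgeR and 6 higher unadjusted (8.7% of all genes). DESeq2 called 2 of these markers and limma voom 3, all higher, against 2.86% and 6.57% of all genes in either direction. The part of these cells in the Tgfb1 level was not tested. Tgfb1 had the lowest coefficient of variation of the 3 ligands in each group, 10.8% in KO and 8.30% in WT.

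Tgfb3 (ENSMUSG00000021253; chromosome 12, 86056745 to 86079041, - strand), known for its role in palate fusion and made mainly by mesenchymal cells and some epithelia, was at 173, 208, 244 and 196 CPM in KO 1, 3, 4 and 5. In WT 2, 3, 4 and 5 it was at 136, 126, 137 and 248 CPM. All KO libraries lay above WT 2, 3 and 4, and WT 5 lay above all of them. The log2 fold change was 0.34 (SE 0.21, adjusted p = 0.42 in edgeR), and 0.63 (SE 0.14, adjusted p = 0.083 in edgeR) without WT 5. On the opposite strand, Gm37804 and Gm48008 share 163 and 257 exon bases with Tgfb3 (4.82% and 7.60% of its exon bases), with 0.151% and 0.0309% as many reads, and Ttll5 overlaps its gene body but no exon bases.

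Tgfb2 (ENSMUSG00000039239; chromosome 1, 186622792 to 186705989, - strand), the ligand without the integrin site, was at 60.0, 69.1, 78.4 and 55.4 CPM in KO 1, 3, 4 and 5, and at 50.3, 48.7, 58.1 and 81.4 CPM in WT 2, 3, 4 and 5. WT 5 again had the highest value of all 8 libraries. The log2 fold change was 0.14 (SE 0.17, adjusted p = 0.69 in edgeR).

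The shares of the ligands did not pass their test, and the size of the difference depended on single libraries. Tgfb1 was 46.9 ± 6.05% of the summed ligand level per kb in KO and 50.1 ± 8.83% in WT (SD, n = 4 each), Tgfb3 was 44.8 ± 5.18% in KO and 41.0 ± 8.01% in WT, and Tgfb2 was 8.37 ± 1.07% in KO and 8.91 ± 0.928% in WT. The exact two-sided permutation p was 0.51 for Tgfb1, 0.46 for Tgfb3 and 0.46 for Tgfb2, with an adjusted p of 0.62 for each over 6 ratios. The difference, KO minus WT, was -3.26 percentage points for Tgfb1 and 3.80 for Tgfb3. Without WT 5 it was -7.54 and 7.69 (exact two-sided permutation p = 0.11 and 0.086, adjusted p = 0.17 for both), and without WT 3 it was -0.91 and 1.80. Tgfb1 and Tgfb3 together, the ligands with the site printed above, held 90.5% to 92.8% of the sum in the KO libraries and 89.9% to 92.1% in the WT libraries. WT 5 stood apart from the other WT libraries in having more Tgfb3 than Tgfb1, 52.7% against 37.3%, as did KO 4 with 50.7% against 39.8% and KO 3 with 46.5% against 44.5%.

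**Figure D3:**
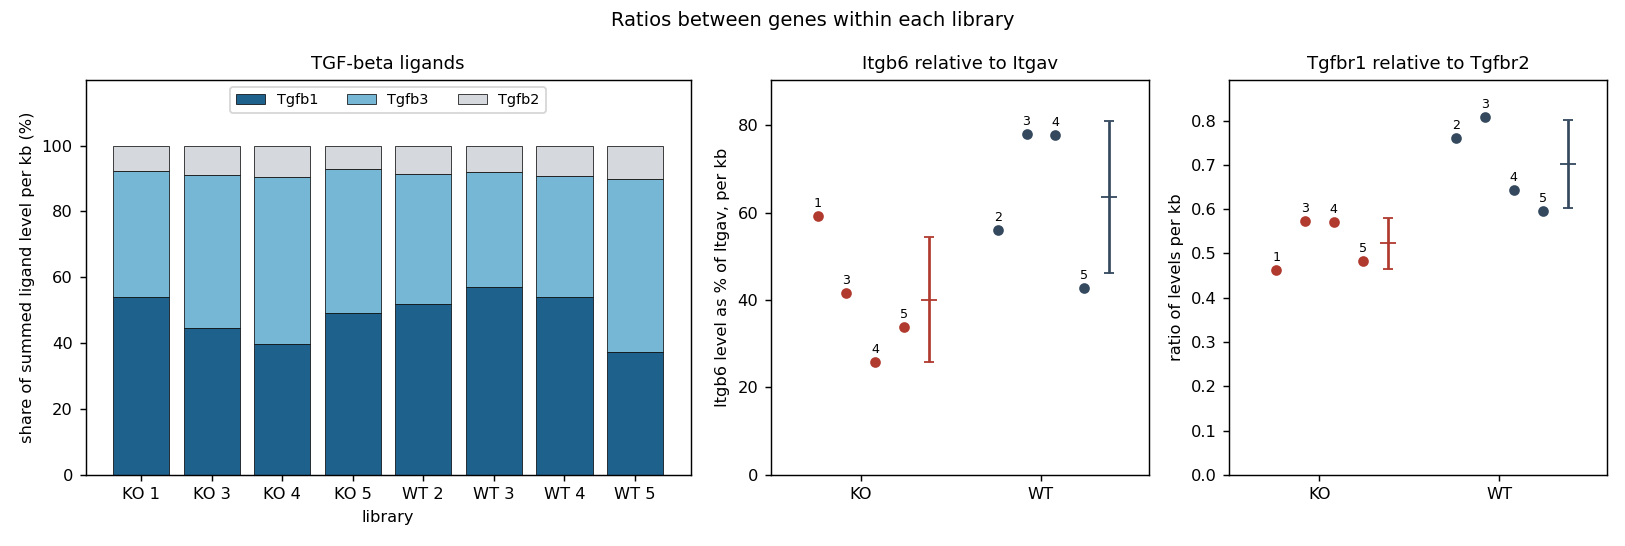
Left, share of each ligand in the summed ligand level per kb of exon (y axis, percent) in each library (x axis); middle, Itgb6 level as a percent of Itgav per kb; right, ratio of Tgfbr1 to Tgfbr2 per kb (points are libraries, bars mean ± SD). Tgfb2 is a minor share throughout, and the 4 KO values of the receptor ratio lie below the 4 WT values.

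The receptor genes had log2 fold changes of opposite sign, and neither passed. Tgfbr1 (ENSMUSG00000007613; chromosome 4, 47353222 to 47414931, + strand), the type I receptor kinase that phosphorylates Smad2 and Smad3, was at 70.3, 87.5, 80.2 and 56.8 CPM in KO 1, 3, 4 and 5, and at 83.0, 90.7, 94.6 and 86.1 CPM in WT 2, 3, 4 and 5. KO 3 lay within the WT range and the other KO libraries below it. The log2 fold change was -0.27 (SE 0.13, adjusted p = 0.35 in edgeR), -0.16 without KO 5, -0.083 without both KO 1 and KO 5, and -0.12 with the GC correction.

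Tgfbr2 (ENSMUSG00000032440; chromosome 9, 116084293 to 116175360, - strand), the type II receptor that binds the ligand first, was at 191, 191, 176 and 147 CPM in KO 1, 3, 4 and 5, and at 137, 141, 184 and 181 CPM in WT 2, 3, 4 and 5. The groups overlapped, and the log2 fold change was 0.13 (SE 0.14, adjusted p = 0.64 in edgeR). Tgfbr2 lies on the chromosome of Wdr72, 41.8 Mb from it.

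Within a library the level of Tgfbr1 per kb was 0.462, 0.573, 0.572 and 0.484 times that of Tgfbr2 in KO 1, 3, 4 and 5, and 0.762, 0.809, 0.643 and 0.597 times in WT 2, 3, 4 and 5. All 4 KO values were below all 4 WT values. The difference between the mean log2 ratios was -0.42, from -0.94 ± 0.16 in KO and -0.52 ± 0.21 in WT (SD, n = 4 each). The exact two-sided permutation p was 0.029, the smallest that 70 arrangements can give, and the adjusted p over 6 ratios was 0.17. With 1 library left out the difference ran from -0.50 without WT 5 to -0.35 without WT 3, and was -0.28 without both KO 1 and KO 5. In this ratio the scaling of the libraries cancels, but GC bias does not. With the GC correction, added for the ratios after the values were seen, the difference was -0.25 (exact two-sided permutation p = 0.029, adjusted p = 0.17 over 6 ratios), with ratios of 0.503 to 0.577 in KO and 0.577 to 0.776 in WT, so that KO 3 and WT 4 all but met.

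The genes that carry the signal onward showed no call. The list of coreceptors and Smads held 12 genes with a median of -0.035 for the log2 fold change, against 0.021 for all genes, with 0 past an adjusted p of 0.05 in edgeR and, unadjusted, 2 higher and 0 lower (8.7% and 6.98% of all genes). DESeq2 and limma voom called 0 of them as well, against 2.86% and 6.57% of all genes. Eng, endoglin, a coreceptor of endothelial cells, was at 79.5 ± 13.7 CPM in KO and 60.1 ± 7.22 CPM in WT (log2 fold change 0.40, SE 0.14, adjusted p = 0.23 in edgeR). The sum of 8 endothelial markers was 371 to 453 CPM in KO and 358 to 376 CPM in WT, and its part in the Eng level was not tested. Ski, a repressor of Smad-driven transcription, was at 143 ± 8.79 CPM in KO and 122 ± 3.86 CPM in WT (log2 fold change 0.23, SE 0.10, adjusted p = 0.29 in edgeR), and its groups did not overlap. Of the Smads, Smad3 was at a log2 fold change of -0.35 (SE 0.21), Smad2 at -0.028 (SE 0.12) and Smad4, the shared partner of both, at -0.041 (SE 0.12).

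The latent binding proteins Ltbp1 and Ltbp3 overlapped between the groups. Ltbp1 (ENSMUSG00000001870; chromosome 17, 75005568 to 75392512, + strand) was at 93.6, 87.6, 84.7 and 68.6 CPM in KO 1, 3, 4 and 5, and at 82.7, 71.1, 65.0 and 93.2 CPM in WT 2, 3, 4 and 5 (log2 fold change 0.10, SE 0.14, adjusted p = 0.73 in edgeR). Ltbp3 (ENSMUSG00000024940; chromosome 19, 5740904 to 5758532, + strand), the form whose loss disturbs enamel and bone, was at 381, 317, 392 and 265 CPM in KO 1, 3, 4 and 5, and at 276, 267, 260 and 433 CPM in WT 2, 3, 4 and 5. This count is uncertain, since the strand setting of the counting is not given. The highest value was in WT 5, and the other WT libraries lay between 260 and 276 CPM, around KO 5. The log2 fold change of Ltbp3 was 0.13 (SE 0.19, adjusted p = 0.74 in edgeR) and turned to -0.040 with the GC correction. Per kb, Ltbp3 stood at 7.30 to 9.35 times the level of Ltbp1 in KO and at 6.75 to 9.38 times in WT. The log2 ratio of Ltbp1 to Ltbp3 differed by -0.045 (exact two-sided permutation p = 0.74, adjusted p = 0.74 over 6 ratios).

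Other genes that hold latent TGF-beta in the matrix all had positive log2 fold changes, but 0 of 10 passed an adjusted p of 0.05 in edgeR. Unadjusted, 7 passed as higher and 0 as lower, against 8.7% and 6.98% of all genes, and the median log2 fold change was 0.45 against 0.021 for all genes. DESeq2 called 2 of the 10 and limma voom 7, all higher, against 2.86% and 6.57% of all genes in either direction. With the GC correction the median was 0.29, with 3 higher at an unadjusted p of 0.05 in edgeR, and without both KO 1 and KO 5 it was 0.50, with 2. Over all genes, 1950 of 16205 reached that p in either direction with the GC correction, and 2007 of 16945 without both KO 1 and KO 5. Ltbp4, a latent binding protein of elastic tissue, was at 132, 104, 111 and 102 CPM in KO 1, 3, 4 and 5, and at 92.3, 88.7, 72.4 and 77.4 CPM in WT 2, 3, 4 and 5 (log2 fold change 0.44, SE 0.12, adjusted p = 0.16 in edgeR). Dcn, the proteoglycan decorin, which binds TGF-beta, was at 421, 447, 514 and 538 CPM in KO 1, 3, 4 and 5, and at 322, 280, 325 and 404 CPM in WT 2, 3, 4 and 5 (log2 fold change 0.53, SE 0.14, adjusted p = 0.15 in edgeR). In both genes all KO values lay above all WT values. Dcn and most others of this list are made by fibroblasts, and the mesenchyme markers, listed separately, had a median log2 fold change of 0.48 over 12 genes, with 8 higher and 0 lower by the unadjusted p, against the same shares of all genes, and 0 past an adjusted p of 0.05 in edgeR. DESeq2 called 5 of these markers and limma voom 7, all higher, against the same 2.86% and 6.57% of all genes. The part of mesenchyme in the list was not tested.

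Tgfbi (ENSMUSG00000035493; chromosome 13, 56609523 to 56639562, + strand), a secreted matrix protein named for its induction by TGF-beta, was at 282, 235, 259 and 267 CPM in KO 1, 3, 4 and 5, and at 157, 166, 164 and 299 CPM in WT 2, 3, 4 and 5. The 4 KO libraries lay close together, with a coefficient of variation of 7.52%, and above WT 2, 3 and 4. WT 5 was higher than any KO library. The mean was 261 ± 19.6 CPM in KO and 196 ± 68.7 CPM in WT (SD, n = 4 each), at a log2 fold change of 0.41 (SE 0.20, adjusted p = 0.33 in edgeR). Without WT 5 it was 0.69 (SE 0.12, adjusted p = 0.059 in edgeR), and limma voom, which weights libraries by their quality, gave 0.56 (SE 0.15) with an adjusted p of 0.039.

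WT 5 differed from the other WT libraries in mesenchyme markers as well. Their summed level was 3141, 2752, 3121 and 3313 CPM in KO 1, 3, 4 and 5, and 2149, 1851, 2004 and 2871 CPM in WT 2, 3, 4 and 5, so that WT 5 lay within the KO range. The summed odontoblast and bone markers were highest in WT 5, at 26345 CPM, and next in KO 4, at 24116 CPM, against 14360 to 19185 CPM in the other 6 libraries. Tgfb3 and Ltbp3 were highest in WT 5 and next in KO 4 too. KO 5, with the highest mesenchyme sum, had the lowest Ltbp3 level of the KO libraries. Without WT 5, an unadjusted p under 0.05 in edgeR was reached by 3 of the 10 genes as higher and 1 as lower (8.95% and 6.28% of all genes, or 15.2% in all), with 0 past an adjusted p of 0.05. The part of these tissues in the levels of Tgfb3, Ltbp3 and Tgfbi was not tested.

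**Figure D4:**
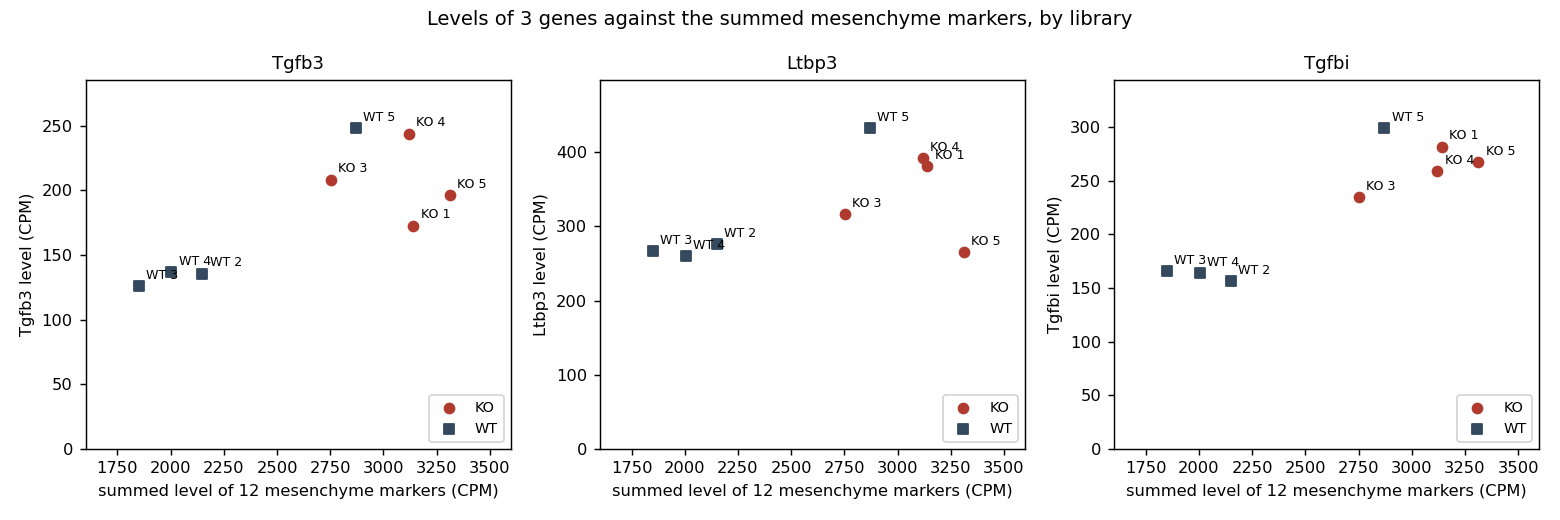
Level of Tgfb3, Ltbp3 and Tgfbi in CPM (y axes, from 0) against the summed level of 12 mesenchyme markers in CPM (x axis, not from 0) in each library. WT 2, 3 and 4 lie together at 1851 to 2149 CPM of the markers, and WT 5 lies at 2871 CPM among the KO libraries.

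Genes known to respond to TGF-beta showed no call in edgeR with the filter on low counts. Of 19 tested, 0 passed an adjusted p of 0.05 in edgeR, and 5 passed unadjusted, all higher (8.7% of all genes). DESeq2 called 1 and limma voom 4, all higher, against 2.86% and 6.57% of all genes in either direction. With no filter on low counts edgeR called 1 of the list as higher, and 241 over all genes. The median log2 fold change was 0.16 against 0.021, and 16 of 19 were positive against 53.1% of all genes. Ctgf, a matricellular protein of connective tissue, was at 25.8, 17.8, 19.6 and 28.2 CPM in KO 1, 3, 4 and 5, and at 15.1, 14.8, 17.6 and 14.7 CPM in WT 2, 3, 4 and 5. All KO values were above all WT values, at a log2 fold change of 0.55 (SE 0.16, adjusted p = 0.16 in edgeR). Col3a1, a fibrillar collagen, had a log2 fold change of 0.88 (SE 0.24, adjusted p = 0.15 in edgeR). Of the genes in the list known to limit the signal, picked after their values were seen, Pmepa1, a membrane protein, was at a log2 fold change of 0.32 (SE 0.17), Bambi, a decoy receptor, at 0.16 (SE 0.12), and Tgif1, a corepressor, at 0.11 (SE 0.12). Smad7, the inhibitory Smad, was at 0.032 (SE 0.10), Ldlrad4 at -0.020 (SE 0.16) and Skil, a Smad corepressor, at -0.11 (SE 0.18).

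**Figure D5:**
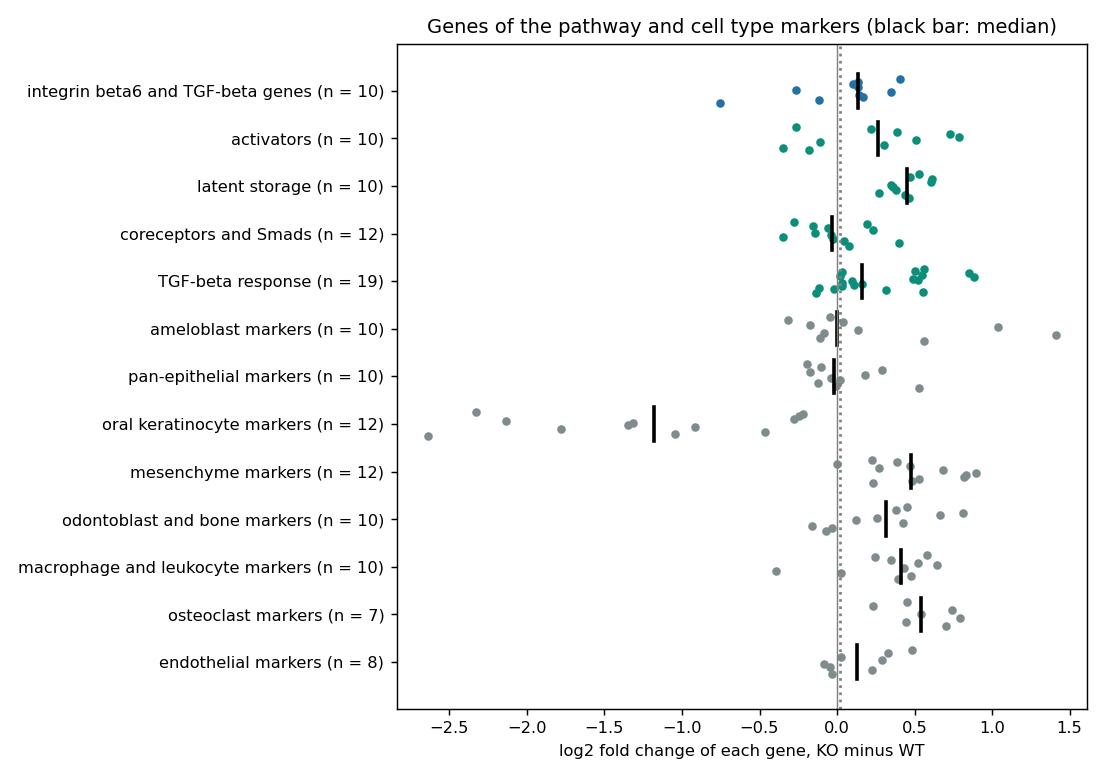
Log2 fold change of each gene tested, KO minus WT (x axis), in the 10 genes, the 4 lists of the pathway and the 8 lists of cell type markers; the black bar is the list median and the dotted line the median of all genes, 0.021. The latent storage genes (median 0.45) and the mesenchyme markers (median 0.48) lie to the right, and the oral keratinocyte markers (median -1.18) to the left.

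Per kb of exon the 10 genes fell into an upper and a lower set in both groups. In KO, Tgfbi, Ltbp3, Tgfb1 and Tgfb3 stood at 69.1 ± 5.20, 65.3 ± 11.4, 63.2 ± 6.83 and 60.7 ± 8.77 CPM per kb (SD, n = 4), and in WT at 52.1 ± 18.2, 59.5 ± 16.0, 56.3 ± 4.67 and 47.8 ± 17.1 CPM per kb. The order among these 4 was not distinct, since the library ranges of neighbours overlapped. Below them came Tgfbr2, at 21.5 ± 2.53 CPM per kb in KO and 19.6 ± 3.11 in WT, and Itgav, at 15.3 ± 3.46 in KO and 16.7 ± 2.11 in WT. The library ranges of Tgfb3 and Tgfbr2 did not overlap in either group. Tgfbr1, Tgfb2, Itgb6 and Ltbp1 were lowest. Itgb6 was the last of the 10 in KO, at 6.15 ± 2.55 CPM per kb, below Ltbp1 in all 4 libraries, and eighth in WT, at 10.4 ± 2.15 CPM per kb, where its range overlapped those of Tgfbr1 and Tgfb2.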

How the data were processed

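RNA-seq was available for 8 libraries, grouped by their titles. The authors deposited raw counts of reads per Ensembl gene, whole numbers that were not normalised, with gene lengths in bases. PolyA RNA was captured, fragmented and reverse transcribed, as the labels' protocols state. CASAVA and mm39 are named in the submitters' processing notes, whereas 98.8% of the table's gene IDs found in GENCODE M21 had that annotation's GRCm38 start, so coordinates are on GRCm38. Which aligner and counting program were used, and with what strand setting, is not given in the sources used here, so reads of overlapping genes on opposite strands could not be told apart.

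Genes were kept by filterByExpr (minimum count 10, minimum total 15), which left 16205 genes, and scaled by TMM. KO was compared with WT in edgeR 4.0.16 (R 4.3.3; quasi-likelihood, robust, two-sided, no covariate), with Benjamini-Hochberg adjustment over all 16205 genes. SE is the size of the log2 fold change over the square root of F. The script was tested on simulated data. Ratios of levels per kb were tested by exact permutation over 70 arrangements and adjusted over 6 ratios. Totals of 17084475 to 21887462 counts set the depth, and no interval for counting error is given beside the replicate SD. GC correction used a lowess trend of each library on the GC content of the longest transcript, which 99.9% of tested genes had. Other scalings, DESeq2 1.42.0, limma voom 3.58.1, no filter, left-out libraries and the replicate number as a block were also tried. The 10 genes, the lists and the libraries doubted were chosen with earlier results of these data known. Named were the 10 genes, Wdr72, list members past the threshold or else the 2 with the smallest p, and the 3 most like Itgb6. Itgb1, Itgb3, Itgb5, Itgb8, the Smads, Xist, the epithelial and other keratinocyte markers and the genes that limit the signal were added for their roles. Mmp9 and Mmp14 were added to complete the activators under the unadjusted p. These additions were made after their values were seen. Coding sequences come from GENCODE M21, aligned with Biopython 1.88.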

Additional observations from a re-analysis of the deposited data

Results flagged for a closer look

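In 3 of 34 groups of 4 libraries, 1 library stood far from the other 3, its gap to the nearest being larger than the Dixon limit at 95% allows, which chance gives in about 1 in 20 groups. All 3 were WT 5, at 248 CPM for Tgfb3, 433 CPM for Ltbp3 and 299 CPM for Tgfbi. In the same library the summed mesenchyme markers were at 2871 CPM, against 1851 to 2149 CPM in the other WT libraries, and its Itgb6 level, 59.5 CPM, was the lowest in WT. Without WT 5 the log2 fold change was 0.63 for Tgfb3, 0.34 for Ltbp3 and 0.69 for Tgfbi, and unadjusted 3 of the 10 genes passed as higher and 1 as lower in edgeR (8.95% and 6.28% of all genes), with 0 past an adjusted p of 0.05.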

How the results depend on the processing

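Of 190 log2 fold changes of the 10 genes under 19 alternatives, 183 kept their direction and their side of the threshold. Tgfbi passed with voom. Itgav turned to 0.082 with voom, 0.021 without KO 5 (leaving out 1 library gave -0.23 to 0.021) and 0.098 without both KO 1 and KO 5, Ltbp3 to -0.040 with the GC correction and -0.15 with that and the replicate block, and Tgfb1 to -0.0064 with both. Itgb6 ran from -1.11 (block) to -0.57 (without KO 5), with adjusted p values of 0.081 (voom) to 0.61. The number of the 10 genes past the threshold was 0 in every alternative but voom, where it was 1. Over all genes the count was 5, against 464 by DESeq2, 1065 by voom, 241 with no filter, 2 with library totals and 11 without both KO 1 and KO 5. With 1 library left out it ran from 0 (without WT 2, WT 3, KO 3 or KO 4, with 1720 to 3139 genes at an unadjusted p of 0.05) to 55 (without KO 5), by way of 16 without WT 4. The cause was not tested. Libraries numbered 3, 4 and 5 in both groups share only a number: their deviations correlated at -0.14, -0.092 and -0.12. With the replicate block on these 6 libraries the count was 1, as it was with no block and with the block and GC correction. The Ltbp1 to Ltbp3 difference ran from -0.13 to 0.030 with 1 library left out and was 0.062 with the GC correction, and the Tgfb2 share differed by 0.34 percentage points without both KO 1 and KO 5 and by 0.16 with the GC correction. The other ratios kept their direction, the Tgfb1 share at -7.54 to -0.91 and the Tgfb3 share at 1.80 to 7.69 percentage points with 1 library left out. The lowest number of reads of the 10 genes in a library was 490, for Itgb6 in KO 5.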
